A study of Mus musculus with 10 samples.

Results

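The genes described here encode members of the PARP family, several of them known to be induced by interferon, and a protein that works beside them. They are Parp9, Parp14, the ubiquitin ligase Dtx3l, the enzymes Parp10, Parp11 and Parp12, the antiviral RNA-binding protein Zc3hav1, and Parp3, Parp8 and Parp1. They were chosen by gene symbol. Of the 10 symbols, 9 had a probe set under that name in the array annotation used here, each with 1 probe set, and Parp1 was not analysed here. All 9 passed the filter on low values, among 19176 named genes and 21792 probe sets tested. Whole-tumor RNA was hybridised to Clariom S Mouse arrays, each mouse on an array of its own, from subcutaneous tumors of B16OVA, a mouse melanoma cell line that carries ovalbumin as a model antigen, in female B6 (C57BL/6) mice that were bought at 6 to 8 weeks of age and given tumor cells at 8 to 10 weeks. In 5 mice (BO-112) the tumor had been injected with BO-112, which packs poly I:C, a synthetic double-stranded RNA, into nanoparticles with polyethylenimine, and in 5 mice (Vehicle) with 5% glucose. Tumors were taken 48 h after the second injection. All tumors came from 1 transplanted line, and each was a mixture of tumor, immune and other host cells.

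PARP proteins transfer ADP-ribose from NAD onto proteins and nucleic acids. Most of the family, including PARP10, PARP11, PARP12 and PARP14, attach single ADP-ribose units, and several carry macrodomains, which bind ADP-ribose, or WWE domains and CCCH zinc fingers, which bind ADP-ribose chains or RNA. Several family genes are induced by interferon, the cytokine that cells release after sensing double-stranded RNA, and viral genomes encode macrodomain enzymes that remove ADP-ribose again. Interferon acts through STAT and IRF proteins, which bind the interferon-stimulated response element (ISRE) and the gamma-activated sequence (GAS) near target genes.

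The promoter stretches printed next show where the letters of these elements lay, or did not lie, close to the start of a gene. Windows of 250 bases before to 50 bases after a gene start were read from RefSeq (GRCm38) for 6 of the 9 measured genes (Parp3, Parp8, Parp11 with 2 starts, Parp12, Dtx3l and Zc3hav1). The ISRE core was searched as GAAA, any 2 bases and GAAA again, which reads TTTC, any 2 bases and TTTC on the other strand, and GAS as TTCNNNGAA, which reads the same on both. The ISRE core was in 1126 of 32817 mouse windows (3.43%) and GAS in 2722 (8.29%). Among the 7 windows of the measured genes each was found in 1 window, and it was the same one, at the upstream of the 2 Parp11 starts. There the ISRE core TTTCGATTTC began 44 bases before the start, and the GAS TTCTTGGAA began 37 bases before it and shared 3 bases with the ISRE core. The first stretch is the 120 bases before that Parp11 start (chr6:127446720-127446839, plus strand), with both matches in capitals. The second is the 120 bases before the Dtx3l start (chr16:35939028-35939147, minus strand), shown because Parp9 and Dtx3l lie head to head on chromosome 16 and overlap at their starts, with Parp14 as the next gene. It holds neither set of letters. The third comes from Parp4 (chr14:56575449-56575568, plus strand), a family member outside the set, chosen after its values were seen, with 2 overlapping ISRE cores in capitals that begin 150 and 144 bases before the start. Unlike the Parp11 stretch, this one stops short of the gene start.
Parp11: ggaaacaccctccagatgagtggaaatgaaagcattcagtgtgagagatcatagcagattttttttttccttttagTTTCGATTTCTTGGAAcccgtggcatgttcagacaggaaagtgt
Dtx3l: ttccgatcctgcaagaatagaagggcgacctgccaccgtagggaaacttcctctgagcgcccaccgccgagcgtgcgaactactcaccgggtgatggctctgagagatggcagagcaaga
Parp4: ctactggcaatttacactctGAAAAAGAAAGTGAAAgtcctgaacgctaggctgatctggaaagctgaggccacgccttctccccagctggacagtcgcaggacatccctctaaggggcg
A match of letters is not a binding site, and a window without them leaves the rest of the locus unread.

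Some facts of the arrays touch every value that follows. Array medians lay between 6.30 and 6.43 on the log2 scale in BO-112 tumors and between 6.25 and 6.32 in Vehicle tumors. The array contrast, which measures how well positive and negative control probe sets separate, was 0.845 to 0.883 in BO-112 tumors and 0.867 to 0.891 in Vehicle tumors, lowest in BO-112 mice 2 and 5 (0.845 and 0.855). The melanocyte markers Pmel, Dct, Mlana, Tyr, Tyrp1, Mitf and Sox10 were present in every tumor, with a summed level of 14.41 to 15.43 in BO-112 and 15.38 to 15.50 in Vehicle (log2 of the summed linear values), and 0 of the 7 passed the test. The T cell list (Cd3 chains, Cd8a, Cd8b1, Cd4) summed to 9.23 to 11.96 in BO-112 and 7.89 to 8.92 in Vehicle, and 3 of its 6 genes, Cd3g, Cd8a and Cd8b1, were called higher. Macrophage and monocyte markers summed to 10.91 to 12.94 against 9.15 to 11.63, with only Ly6c2, a monocyte gene that is also found on other leukocytes, called higher among 6 measured (log2 fold change 3.57, limma adjusted p = 0.0108). The BO-112 sum rested largely on this gene: for Adgre1, C1qa and C1qb, which mark macrophages, the log2 fold changes were -0.27, -0.47 and -0.66. Csf1r and Itgam went the other way, at 0.29 and 1.23, and none of these genes passed the test. NK cell, neutrophil and dendritic cell lists had no called gene, and 3 of the 4 dendritic cell markers and both measured B cell markers were on no array above the 75th percentile of the negative control probe sets. Neutrophil markers summed to 8.04 to 10.50 in BO-112 and 7.65 to 8.56 in Vehicle, with log2 fold changes from 0.66 (Cxcr2) to 1.89 (S100a8). NK cell markers summed to 6.91 to 8.83 against 6.57 to 7.14, with log2 fold changes from 0.20 (Eomes) to 1.03 (Klrk1). No NK cell marker exceeded that percentile on a Vehicle array. BO-112 mouse 5 had the lowest melanocyte sum and the highest T cell sum and macrophage and monocyte sum. In RNA from whole tumors, more cells of a type and more RNA per cell cannot be told apart, and the part of cell composition in the results that follow was not tested.

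Of the 9 measured genes, 7 were higher in BO-112 tumors, where 2.43% of all tested probe sets were called higher (529 of 21792, limma with Benjamini-Hochberg adjusted p under 0.05) and 2.79% lower. The 7 were Dtx3l, Parp14, Parp10, Parp11, Parp12, Parp3 and Parp8, with fold changes from 1.89 to 4.32. Parp9 and Zc3hav1 did not pass the test, and none was lower. The median log2 fold change of the 9 was 1.32 against 0.01 over all tested probe sets. In 6 genes every BO-112 mouse lay above every Vehicle mouse, a separation found in 3.39% of all tested probe sets. The share of calls that were higher, 529 against 609 lower, became 436 against 855 when each array was centred on its median. Once the array contrast entered the fit 0 of the 9 passed, although the log2 fold changes stayed positive (Parp3 0.91, Parp11 1.29, Parp10 1.37, Parp12 1.13, Dtx3l 1.07, Parp14 1.62 and Parp8 1.33); with the mouse number as a replicate block only Parp3 did, and without BO-112 mice 2 and 5 the same 7 did.

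**Figure D1:**
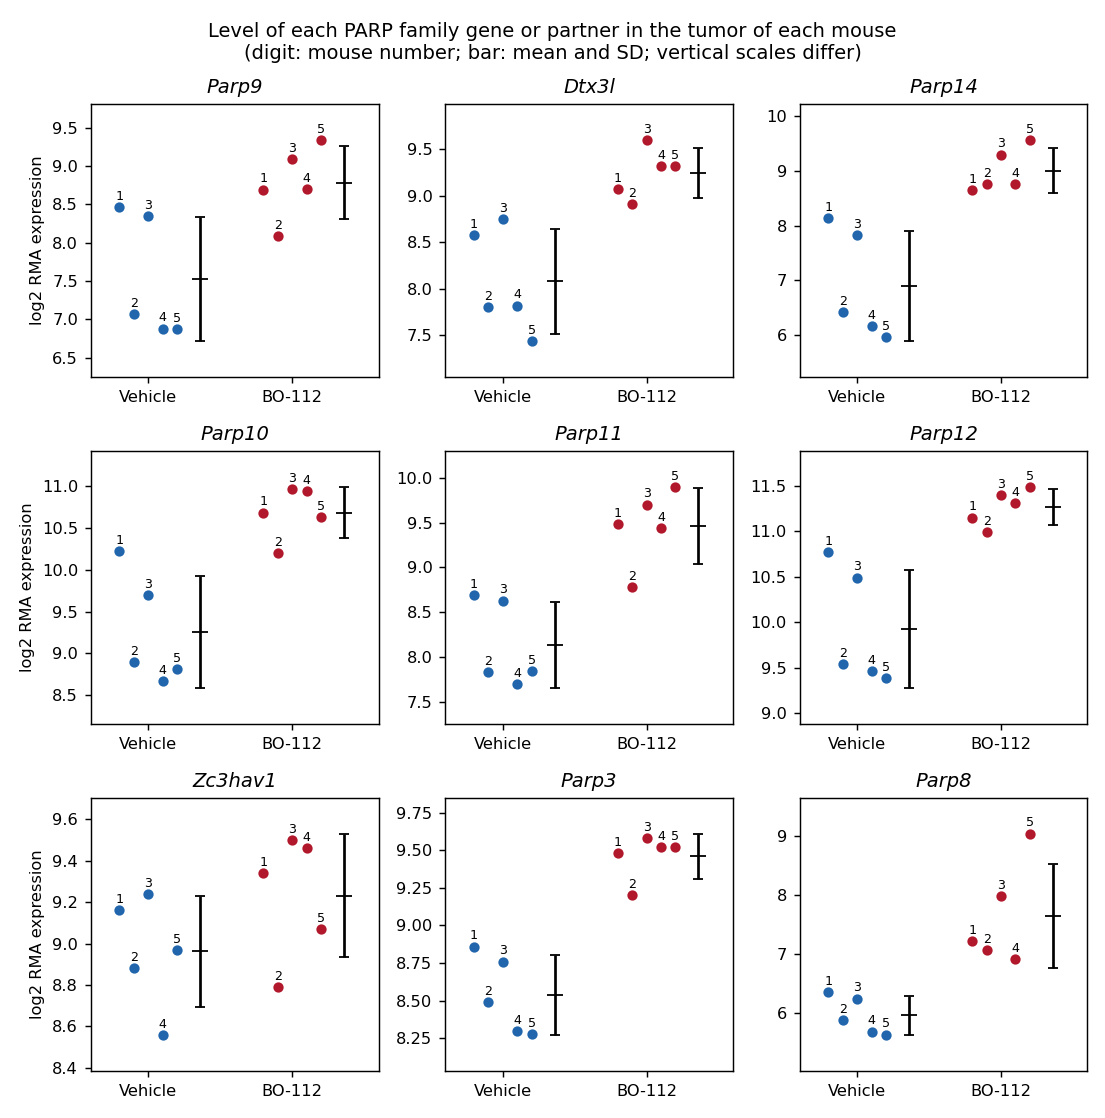
Deposited log2 RMA value of the 9 measured genes in each BO-112 mouse and each Vehicle mouse, with group means and SD as the error bars and mice numbered. Parp14 and Parp8 show the widest shifts of the means, Zc3hav1 the narrowest, and Vehicle mice 1 and 3 lie above the other Vehicle mice in every panel.

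PARP9 and DTX3L form a heterodimer in which PARP9 contributes macrodomains and DTX3L a RING-type ubiquitin ligase. Dtx3l was 9.07, 8.91, 9.60, 9.32 and 9.32 in BO-112 mice 1 to 5, and 8.58, 7.80, 8.75, 7.82 and 7.44 in Vehicle mice 1 to 5. The groups did not overlap, with the lowest BO-112 mouse 0.16 above the highest Vehicle mouse. The means were 9.24 ± 0.26 and 8.08 ± 0.56 (SD, n = 5 each), a 2.24-fold difference (log2 fold change 1.16, SE 0.24, limma adjusted p = 0.0243). Parp9 was 8.69, 8.08, 9.09, 8.70 and 9.34 in BO-112 mice and 8.46, 7.07, 8.35, 6.88 and 6.87 in Vehicle mice. Here the groups overlapped: Vehicle mice 1 and 3 stood at the level of the lower BO-112 mice, and 4 of the 5 BO-112 mice lay above all Vehicle mice. The means, 8.78 ± 0.48 and 7.52 ± 0.81 (SD, n = 5 each), differed by 1.26 on the log2 scale with a 95% interval of 0.47 to 2.04, and Parp9 missed the threshold (limma adjusted p = 0.0646, unadjusted 0.00467). The call of Dtx3l was lost without Vehicle mouse 2, 4 or 5 or BO-112 mouse 1 (adjusted p = 0.0676, 0.0677, 0.0557 and 0.0508), and Parp9 passed without Vehicle mouse 1 (adjusted p = 0.0395).

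PARP14, a mono-ADP-ribosyltransferase with macrodomains first known as a partner of STAT6, had the highest measured fold change of the 9 genes, with a 95% interval (1.21 to 3.02 on the log2 scale) that overlapped that of Parp8 (0.90 to 2.47). Parp14 was 8.65, 8.76, 9.30, 8.76 and 9.57 in BO-112 mice and 8.13, 6.41, 7.83, 6.16 and 5.95 in Vehicle mice. The Vehicle mice split widely, 1 and 3 near 8 and the others near 6, and the groups were still 0.52 apart. The means were 9.01 ± 0.40 and 6.90 ± 1.01 (SD, n = 5 each), a 4.32-fold difference (log2 fold change 2.11, SE 0.41, limma adjusted p = 0.0193). On 3 of the 5 Vehicle arrays Parp14 was above the 75th percentile of the negative control probe sets, so its lowest Vehicle values lay within the range of background and its fold can be understated. The call was lost without Vehicle mouse 2 or 4 (adjusted p = 0.0568 and 0.0542).

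PARP10, a mono-ADP-ribosyltransferase with RNA recognition motifs, had Parp10 values of 10.68, 10.20, 10.96, 10.94 and 10.63 in BO-112 mice and 10.22, 8.90, 9.70, 8.67 and 8.81 in Vehicle mice. BO-112 mouse 2 lay 0.02 below Vehicle mouse 1, the only overlap. The mean rose from 9.26 ± 0.67 to 10.68 ± 0.31 (SD, n = 5 each), 2.68-fold (log2 fold change 1.42, SE 0.29, limma adjusted p = 0.0202). The call of Parp10 was lost without Vehicle mouse 2, 4 or 5 or BO-112 mouse 1 (adjusted p = 0.0612, 0.0553, 0.0576 and 0.051).

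PARP11 and PARP12 both carry a WWE domain, and PARP12 also has CCCH zinc fingers like those of ZC3HAV1. Parp11 was 9.48, 8.78, 9.70, 9.44 and 9.90 in BO-112 mice and 8.69, 7.83, 8.63, 7.70 and 7.84 in Vehicle mice. BO-112 mouse 2 was the lowest of its group and only 0.08 above Vehicle mouse 1. The difference was 2.50-fold (log2 fold change 1.32, SE 0.25, limma adjusted p = 0.0165), with means of 9.46 ± 0.42 and 8.14 ± 0.48 (SD, n = 5 each). Parp12 was 11.15, 10.99, 11.40, 11.31 and 11.49 in BO-112 mice and 10.77, 9.54, 10.49, 9.46 and 9.38 in Vehicle mice, without overlap. Its BO-112 mice lay within 0.50 of each other while the Vehicle mice spread over 1.39. The difference was 2.53-fold (log2 fold change 1.34, SE 0.27, limma adjusted p = 0.0194), with means of 11.27 ± 0.20 and 9.93 ± 0.65 (SD, n = 5 each). Parp11 lost its call without Vehicle mouse 2 (adjusted p = 0.0528), and Parp12 without Vehicle mouse 2, 4 or 5 (adjusted p = 0.0585, 0.0553 and 0.0521).

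ZC3HAV1, also called ZAP or PARP13, has a PARP fold without catalytic activity and binds CpG-rich viral RNA for decay. Zc3hav1 was 9.34, 8.79, 9.50, 9.46 and 9.07 in BO-112 mice and 9.16, 8.88, 9.24, 8.56 and 8.97 in Vehicle mice. The groups overlapped, with BO-112 mouse 2 below 4 of the Vehicle mice. The means were 9.23 ± 0.30 and 8.96 ± 0.26 (SD, n = 5 each), and the difference of 0.27 on the log2 scale had a 95% interval of -0.10 to 0.64 (limma adjusted p = 0.343). This upper bound lay below the log2 fold change of each of the 7 called genes. The 95% intervals of Parp3 (0.62 to 1.22) and Dtx3l (0.63 to 1.70) still overlapped that of Zc3hav1. Only Parp12 was compared with Zc3hav1 in a test within mice.

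PARP3 acts in the repair of DNA breaks, and PARP8 is a little-studied mono-ADP-ribosyltransferase. Parp3 was 9.48, 9.20, 9.58, 9.52 and 9.52 in BO-112 mice and 8.86, 8.49, 8.76, 8.30 and 8.28 in Vehicle mice. The groups were 0.34 apart, and 4 of the 5 BO-112 mice lay between 9.48 and 9.58. The difference was the smallest of the 7 called genes, 1.89-fold, and had the lowest adjusted p (log2 fold change 0.92, SE 0.14, limma adjusted p = 0.00674), with means of 9.46 ± 0.15 and 8.54 ± 0.26 (SD, n = 5 each). Parp3 passed in 10 of 10 fits with 1 mouse left out. Parp8 was 7.22, 7.07, 7.98, 6.92 and 9.04 in BO-112 mice and 6.36, 5.88, 6.25, 5.69 and 5.64 in Vehicle mice. It spread most in the treated group, where mouse 5 stood at 9.04, and 1 of 5 Vehicle arrays was above the negative control percentile. The difference was 3.21-fold (log2 fold change 1.68, SE 0.36, limma adjusted p = 0.0261), with means of 7.65 ± 0.88 and 5.96 ± 0.33 (SD, n = 5 each) and groups 0.56 apart. RMA compresses differences near background, so this fold can be understated too, and the order of Parp14 and Parp8 is not settled. Parp8 lost its call without Vehicle mouse 2, 3, 4 or 5 or BO-112 mouse 3 (adjusted p = 0.0672, 0.0552, 0.0703, 0.0713 and 0.0523).

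**Figure D2:**
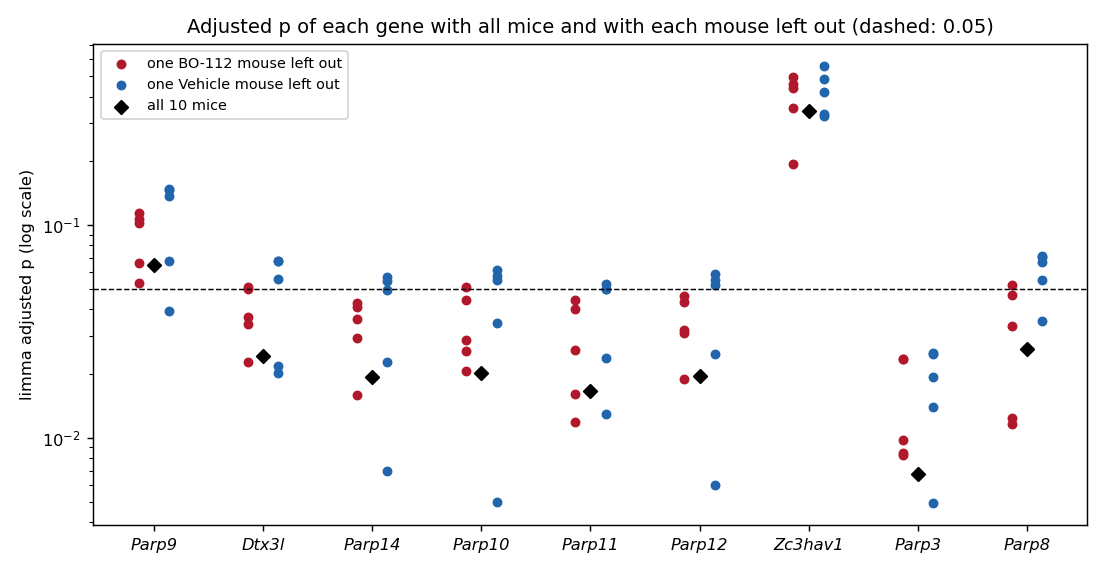
Benjamini-Hochberg adjusted p of the 9 measured genes (log axis) with all 10 mice and with each mouse left out, with the threshold of 0.05 as a line. Parp3 stays under the line in every fit and Zc3hav1 above it, and most crossings of the other genes come from leaving out Vehicle mouse 2, 4 or 5.

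The mice of a group took much the same order from gene to gene. Vehicle mice 1 and 3 were the highest 2 Vehicle mice in 9 of 9 genes, mouse 1 the highest in 7 and mouse 3 in 2. The lower of these mice stood above the highest of Vehicle mice 2, 4 and 5 by 1.43 for Parp14, 1.28 for Parp9 and 0.95 for Parp12, and by 0.19 for Zc3hav1. In the Vehicle group the SD of Parp14, Parp9, Parp10 and Parp12 exceeded that of 99.2%, 98.6%, 98.1% and 98.0% of all tested probe sets. In the BO-112 group mouse 2 was the lowest in 7 of 9 genes, and mouse 3 was among the highest 2 in 9 and mouse 5 in 7. The 9 genes share these arrays, so the repeated order is no independent count.

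The leukocyte gene Ptprc (CD45) was 8.86, 8.83, 9.74, 8.21 and 11.22 in BO-112 mice and 9.14, 7.92, 8.29, 7.76 and 6.29 in Vehicle mice. Its groups overlapped, with a log2 fold change of 1.49 (95% interval 0.20 to 2.78, limma adjusted p = 0.147). Vehicle mice 1 and 3 were thus the highest Vehicle mice for Ptprc as well. Vehicle mouse 1 had the highest T cell (8.92), macrophage and monocyte (11.63), muscle (12.27) and keratinocyte (11.40) marker sums of its group. Vehicle mouse 3 stood out less, with a T cell sum of 8.17 beside 8.16 in Vehicle mouse 5. Its macrophage and monocyte sum of 10.96 lay below that of Vehicle mouse 2 (11.07). Of the 9 genes, 5 (Parp9, Parp14, Parp12, Parp3 and Parp8) had the Vehicle mice in the order of Ptprc, and 1, Parp8, had the BO-112 mice in that order too. The part of leukocyte content in these orders was not tested.

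Differences between genes within a mouse asked whether related genes changed by unequal amounts. Only the shift of a difference between groups was read, because probe sets of different genes do not share a scale. Of 6 planned pairs 5 were run, with p-values adjusted over the 5, and the smallest p that 5 against 5 mice allow is 0.00794. Parp14 minus Parp9 was -0.04, 0.68, 0.21, 0.06 and 0.23 in BO-112 mice and -0.33, -0.66, -0.51, -0.71 and -0.91 in Vehicle mice. All 5 BO-112 mice lay above every Vehicle mouse. The difference was 0.23 ± 0.27 and -0.63 ± 0.22 (SD, n = 5 each), a shift of 0.85 on the log2 scale (95% interval 0.51 to 1.23, two-sided exact permutation p = 0.00794, adjusted 0.0198). The measured value of Parp14 thus shifted more than that of Parp9, on probe sets that do not share a scale. Without BO-112 mice 2 and 5 the shift was 0.70 (exact permutation, adjusted p = 0.0893). Low Parp14 values on 2 Vehicle arrays lay within background, as given above.

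The zinc finger proteins Zc3hav1 and Parp12 shifted apart as well. Zc3hav1 minus Parp12 was -1.81, -2.20, -1.90, -1.86 and -2.42 in BO-112 mice and -1.62, -0.65, -1.25, -0.90 and -0.42 in Vehicle mice. All 5 BO-112 mice lay below every Vehicle mouse, and the difference moved from -0.97 ± 0.48 to -2.04 ± 0.26 (SD, n = 5 each), a shift of -1.07 (95% interval -1.62 to -0.45, two-sided exact permutation p = 0.00794, adjusted 0.0198).

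For the other 3 pairs no shift passed the test. Dtx3l minus Parp9 was 0.39, 0.82, 0.51, 0.62 and -0.02 in BO-112 mice and 0.12, 0.73, 0.40, 0.95 and 0.57 in Vehicle mice, a shift of -0.09 (95% interval -0.57 to 0.39, two-sided exact permutation p = 0.651, adjusted 0.813). Dtx3l was called and Parp9 was not, yet their changes were not shown to differ, and the interval holds 0. Parp10 minus Parp9 shifted by 0.16 (95% interval -0.29 to 0.57, two-sided exact permutation p = 0.405, adjusted 0.675). Parp11 minus Parp12 shifted by -0.02 (95% interval -0.34 to 0.29, two-sided exact permutation p = 0.905, adjusted 0.905). These intervals bound unequal change and do not show that the paired genes changed alike.

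**Figure D3:**
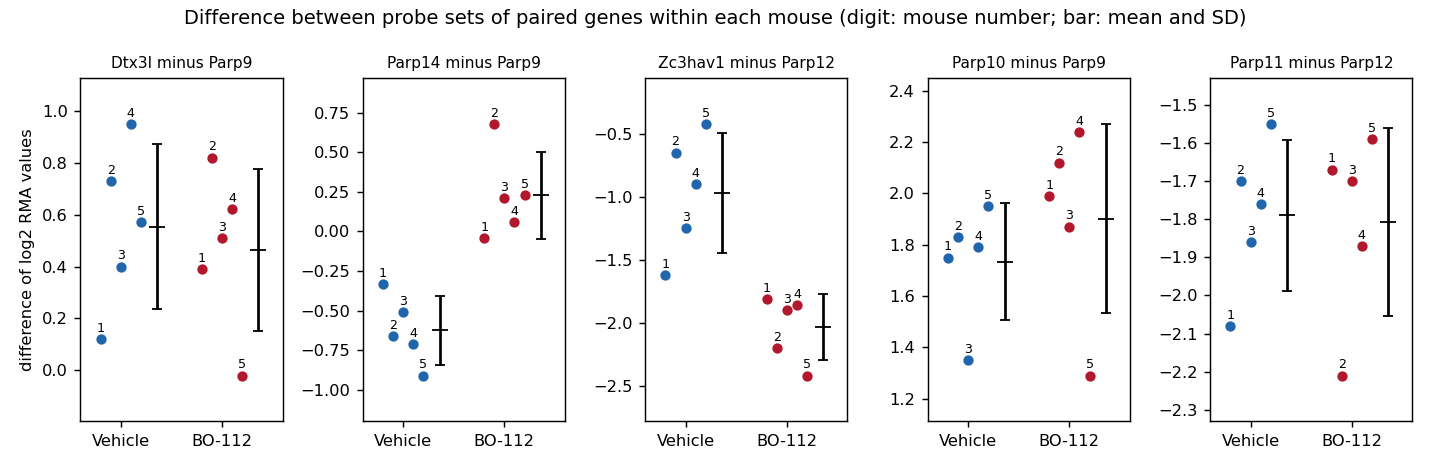
Within-mouse difference of log2 values for the 5 gene pairs, 1 numbered point per mouse, with a bar for the group mean and SD. The 2 groups separate for Parp14 minus Parp9 and for Zc3hav1 minus Parp12, and overlap for the other pairs.

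Around Parp9, Parp14 and Zc3hav1 the most alike profiles over the 10 arrays were ranked among 19175 named genes by the root mean square difference of values centred on the Vehicle mean. Nearest to Parp9 were Tmem229b (0.11), the proteasome activator subunit Psme2 (0.17), Parp12 (0.22), Parp11 (0.23) and the ISG15-conjugating enzyme Ube2l6 (0.23), with Dtx3l 13th at 0.29 and Parp14 at rank 327. Nearest to Parp14 were the MHC class I gene H2-T10 (0.13), Ifih1 (0.18), which encodes the double-stranded RNA sensor MDA5, Irf1 (0.25), the cytokine inhibitor Il18bp (0.26) and 9930111J21Rik1 (0.27). Its nearest measured family member was Parp12, at rank 77 and 0.62. For Zc3hav1, Zc2hc1a (0.10), Tbrg1 (0.10), Mbip (0.12), 1600012H06Rik (0.12) and Tmbim4 (0.13) came first, with log2 fold changes of 0.20 to 0.28. The nearest of the other 8 genes, Parp3, was at rank 13100 and 0.49. The distance depends on the size of the change, so a gene that changed little ranks beside the many others that changed little. Ranks from different genes therefore cannot be compared: Parp9 and Zc3hav1 were 0.84 apart, rank 1232 from Parp9 and 18171 from Zc3hav1. These distances come from 10 arrays in 2 groups and describe likeness of profile only.

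Of 75 listed genes of the same pathway 68 were tested, 4 were called higher, 1 lower and 63 not called, where 2.43% and 2.79% of all tested probe sets were called higher and lower. At an unadjusted limma p under 0.05 there were 25 of the 68, where 25.0% of all tested probe sets were: 3 of 11 other ADP-ribosyltransferases, 5 of 17 readers, erasers and cofactors, 5 of 19 genes of NAD supply and use, 9 of 18 ZAP partners and RNA decay factors and 3 of 3 interferon transcription factors. A list with 1 call among 17 to 19 genes lies near the share over all probe sets, so the calls in the middle 3 lists are given as single genes. Of the other ADP-ribosyltransferases 0 were called, with log2 fold changes from -0.36 to 0.42 and a median of -0.06. Those with the lowest p were Parp6 (log2 fold change 0.42, SE 0.16, limma adjusted p = 0.136) and the tankyrase Tnks2 (-0.36, SE 0.13, limma adjusted p = 0.116). Parp4, the vault PARP, whose promoter stretch is printed with those of Parp11 and Dtx3l, was 6.98 ± 0.23 in BO-112 and 7.03 ± 0.12 in Vehicle tumors (SD, n = 5 each), with a log2 fold change of -0.06 (95% interval -0.33 to 0.21, limma adjusted p = 0.803). Matches of the same letters were also found in the windows of Stat2 and Irf1, whose values follow and which were called. They were found as well for the ISRE core in Xrcc1 and Rnf146, and for GAS in Exosc2, Dtx2, Qprt, Parp16, Dcp1a and Dis3. None of these other genes was called, and Sirt7, with a GAS match, was not tested. No relation between match and change is drawn.

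Among readers, erasers and cofactors of ADP-ribosylation 17 were tested, with a median of -0.19, and 1 was called, in the lower direction. It was Gdap2, a macrodomain protein, at 7.52, 7.41, 7.28, 7.62 and 7.07 in BO-112 mice and 7.79, 7.80, 8.04, 7.88 and 7.76 in Vehicle mice. The groups did not overlap (log2 fold change -0.47, SE 0.12, limma adjusted p = 0.0448), and the call held in 1 of 10 fits with a mouse left out (0.114 without Vehicle mouse 3). Among genes of NAD supply and use 19 were tested, with a median of 0.16, and 1 was called higher. Bst1 (CD157), an ectoenzyme that cleaves NAD, was 8.38, 8.02, 8.72, 7.64 and 9.83 in BO-112 mice and 7.33, 7.42, 6.66, 7.18 and 6.54 in Vehicle mice. The difference was 2.81-fold (log2 fold change 1.49, SE 0.36, limma adjusted p = 0.0374), and the call held in 2 of 10 fits with a mouse left out (0.0986 without Vehicle mouse 5). In BO-112 the highest and lowest mice for Bst1, 5 and 4, were those for Ptprc, while in Vehicle the highest was mouse 2 for Bst1 and mouse 1 for Ptprc, and the lowest was mouse 5 for both.

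For partners of ZAP and RNA decay factors 18 were tested, with a median of -0.18, and 1 was called higher. This was Trim25, a ubiquitin ligase that acts as a ZAP cofactor, at 8.34, 7.92, 8.72, 7.83 and 9.19 in BO-112 mice and 7.45, 7.19, 7.37, 6.57 and 6.04 in Vehicle mice. The groups did not overlap and the difference was 2.77-fold (log2 fold change 1.47, SE 0.32, limma adjusted p = 0.0281), while the call held in 5 of 10 fits with a mouse left out (0.0755 without Vehicle mouse 4). Of the interferon transcription factors 3 were tested, with a median of 2.14, and 2 were called higher. Stat2 was 10.15, 10.11, 10.50, 10.26 and 10.72 in BO-112 mice and 8.99, 8.08, 8.52, 7.62 and 7.33 in Vehicle mice, 4.72-fold (log2 fold change 2.24, SE 0.28, limma adjusted p = 0.00355), and passed in 10 of 10 fits with a mouse left out. Its promoter window held an ISRE core that began 222 bases before the start. Irf1 was 10.83, 10.78, 11.05, 10.95 and 11.25 in BO-112 mice and 10.48, 7.98, 9.96, 8.08 and 7.64 in Vehicle mice, 4.42-fold (log2 fold change 2.14, SE 0.49, limma adjusted p = 0.0344), and its window held a GAS that began 90 bases before the start. Vehicle mice 1 and 3 were again the highest Vehicle mice for both genes, and the Irf1 call held in 3 of 10 fits with a mouse left out (0.088 without Vehicle mouse 2).

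**Figure D4:**
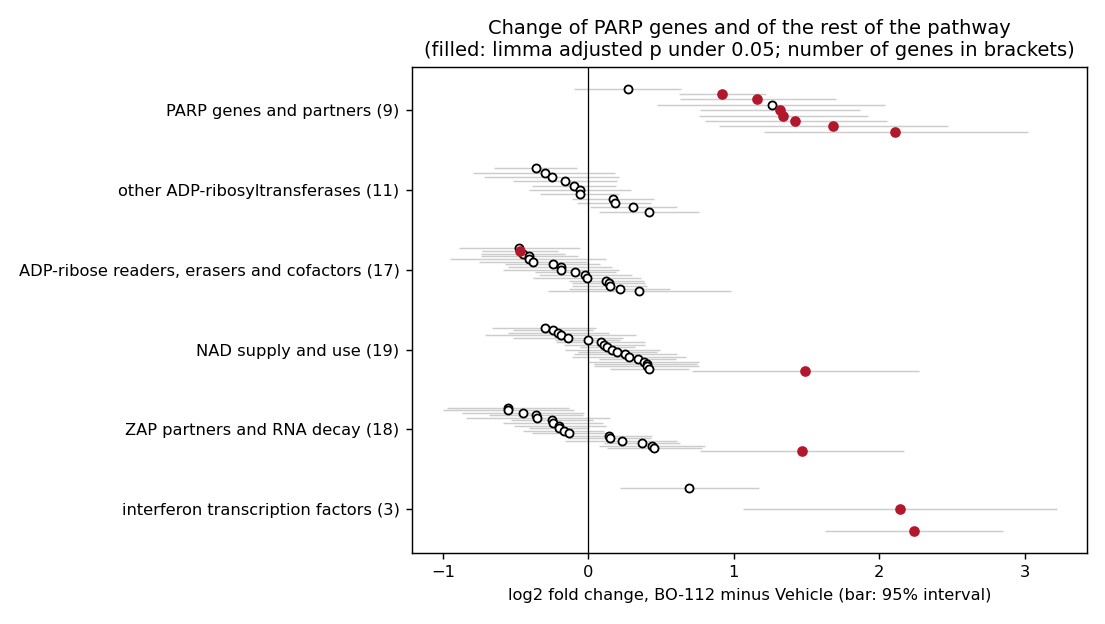
Limma log2 fold change, BO-112 over Vehicle, of each of the 9 measured genes and each tested gene of the 5 pathway lists, with 95% intervals as bars and filled points for genes called at adjusted p under 0.05. The measured genes lie between 0.27 and 2.11, and most listed pathway genes lie near 0.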

How the data were processed

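Whole-tumor RNA of 5 BO-112 and 5 Vehicle mice, each a separate animal by the labels, was measured on Clariom S Mouse arrays. The authors deposited log2 values per probe set after background correction, quantile normalization and summarisation by RMA. The RMA version and the genome build behind the probe sets are not given in the sources used here. RMA compresses differences near background, so folds of dim probe sets can be understated. Of 29129 probe sets, 6923 controls were set aside, and 21792 of 22206 passed the filter of the study's methods (above 4 in at least 3 mice of a group). BO-112 was compared with Vehicle in limma 3.58.1 (R 4.3.3, lmFit and eBayes, two-sided), with Benjamini-Hochberg adjustment over all tested probe sets and calls at adjusted p under 0.05, and the fit was tested on simulated data. Within-mouse differences between genes used exact permutation tests, and their 95% intervals came from inverting them. The 75th percentile of 5222 negative control probe sets on each array marked background. The number of arrays, 10, limits the precision.

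Gene symbols came from the platform annotation, under which 19239 tested probe sets had 1 symbol and 2553 none. The text names all measured members, up to 4 called genes of each pathway list or else the 2 of lowest p, and the 5 nearest profiles of Parp9, Parp14 and Zc3hav1. Listed genes whose promoter window held a match are named too. Members and lists were chosen with earlier results of these data known. Promoter letters were read from RefSeq (GRCm38). Alternatives covered the filter, centring, quantile normalization, variance trend, array weights, array contrast, a replicate block, omitted mice and the call rule of the study's methods (B-statistic above 0). No per-sample column was set aside.

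Same-numbered mice of the groups were separate animals, and the correlations of their deviations from the group means, -0.310, -0.0869, 0.387, -0.215 and -0.261, did not pair them.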

Additional observations from a re-analysis of the deposited data

Results flagged for a closer look

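Parp3 in BO-112 mouse 2, at 9.20, stood apart from the other BO-112 mice, whose next value was 9.48, with a gap of 0.75 of the group's range. Among 66 gene and group combinations examined it was the only such value, where chance gives about 1 in 20 for independent values. The combinations share the same arrays, so that rate cannot be applied and no pattern is read from the count. BO-112 mouse 2 also had the lowest array contrast (0.845) and was the lowest of its group in 7 of 9 genes. The difference between groups for Parp3 passed the limma test with and without this mouse.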

How the results depend on the processing

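Over 19 alternatives to each of the 9 log2 fold changes, 0 changed direction, though for many alternatives this was fixed in advance. The filters, the variance trend and the replicate block leave a fold change as it is (Parp9 1.26 in each). In the 6 genes without overlap of the groups, leaving mice out cannot reverse it. The count of members called higher (7) became 0 with the array contrast as a covariate and ranged from 1 without Vehicle mouse 2 to 8 without Vehicle mouse 1. Parp9 also passed with array weights (adjusted p = 0.0398), quantile normalization (0.0462) and a filter at a mean above 6 (0.0467). Calls over all probe sets (1138) became 1726 with array weights, 27 with the array contrast and 475 at a B-statistic above 0, and 347 without Vehicle mouse 2 to 3134 without BO-112 mouse 4. Called pathway genes (5) became 8 with quantile normalization, 11 with array weights, 0 with the array contrast, 1 at a B-statistic above 0, and 1 to 7 with a mouse left out. The causes were not tested.

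With the replicate block 1 member (Parp3), 1 pathway gene and 102 probe sets were called, and the shifts of 0.85 (Parp14 minus Parp9) and -1.07 (Zc3hav1 minus Parp12) had adjusted p = 0.156 by exact sign-flip permutation, whose smallest p of 0.0625 cannot pass. Without BO-112 mice 2 and 5 these shifts were 0.70 and -0.89 (both adjusted 0.0893 by exact permutation, where the smallest p is 0.0357), and the Parp11 minus Parp12 shift was 0.04. With a mouse left out, the Parp11 minus Parp12 shift ranged from -0.09 to 0.08 and the Dtx3l minus Parp9 shift from -0.20 to 0.03. The log2 fold change of Parp4, -0.06, became 0.03 with array weights, 0.04 with the array contrast, 0.02 without BO-112 mice 2 and 5, and -0.10 without BO-112 mouse 5 to 0.04 without BO-112 mouse 2. Another probe set per gene and the Parp3 minus Parp1 difference were not run. Parp8 and Parp14 had the weakest signal over background in Vehicle tumors.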
